A study of Rattus norvegicus with 20 samples.

Results

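The contrast described here is between female rat pups whose mothers received betamethasone in pregnancy and pups whose mothers received saline, with no spasms induced in either. It takes the 8 samples of the conditions BNS and SNS, 4 in each, out of 20 samples in the series. SNS pups (prenatal saline, no spasms) and BNS pups (prenatal betamethasone, no spasms) were Sprague-Dawley females, and both conditions were given saline after birth. The mothers were injected 2 times on gestational day 15, with betamethasone at 0.4 mg/kg per injection or with saline, and delivered on gestational day 23. The arcuate nucleus was taken on postnatal day 15, so that any difference was read long after the drug had been given. BYS, BYA and BYP, whose levels are given beside some genes, also had prenatal betamethasone, followed by NMDA-triggered spasms and by saline, ACTH or PMX53 (an antagonist of the complement C5a receptor). Litters were culled to females, and the labels do not say which pups shared a mother, so the p-values measure the spread between these samples, which may share a litter.

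Betamethasone is a synthetic glucocorticoid that crosses the placenta. It binds the glucocorticoid receptor, a transcription factor that moves to the nucleus and acts on genes through short response elements. In this model prenatal exposure makes the pups more liable to spasms when NMDA is given later. The arcuate nucleus, at the base of the hypothalamus, holds neurons that make the feeding peptides AgRP, NPY and POMC, neurons that make kisspeptin, neurokinin B and dynorphin, and neurons that release growth hormone-releasing hormone or dopamine. Tanycytes and ependyma line the ventricle beside it.

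Levels below are log2 fluorescence intensities after background correction and quantile normalization, and a difference of 1 is 2-fold. A gene was called when the adjusted p of the BNS minus SNS difference was under 0.05 in limma, fitted to the 20 samples with condition and dye as terms. All 4 SNS samples lay on 1 slide and all 4 BNS samples on another, with 2 pups of the same condition on each array, so slide and prenatal exposure cannot be told apart in any result below.

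The SNS slide was dimmer than the BNS slide. The median spot signal was 5.42 to 11.4 times the local background in SNS and 14.1 to 19.9 times in BNS, and 51.5% to 74.9% of gene spots were well above background in SNS against 67.7% to 81.2% in BNS. The synthetic spike-in controls did not follow the gene probes. Before normalization, the BNS minus SNS difference in mean log2 spike-in signal was -0.28 in Cy3 and 0.275 in Cy5, while the median gene probe was higher in BNS by 1.39 in Cy3 and 1.1 in Cy5. Scaled to the spike-in probes in place of quantiles, the median gene stood 1.11 higher in BNS, so every fall given below is a fall relative to the other genes on the array. The distances between samples overlapped in part. The root mean square log2 distance over genes was 0.45 to 0.566 between an SNS and a BNS sample. It was 0.206 to 0.371 among BNS samples and 0.244 to 0.271 between the SNS pups that shared an array. It was 0.412 to 0.478 between the 2 SNS arrays, farther apart than any pair of BNS samples and within reach of the distances between conditions.

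**Figure D1:**
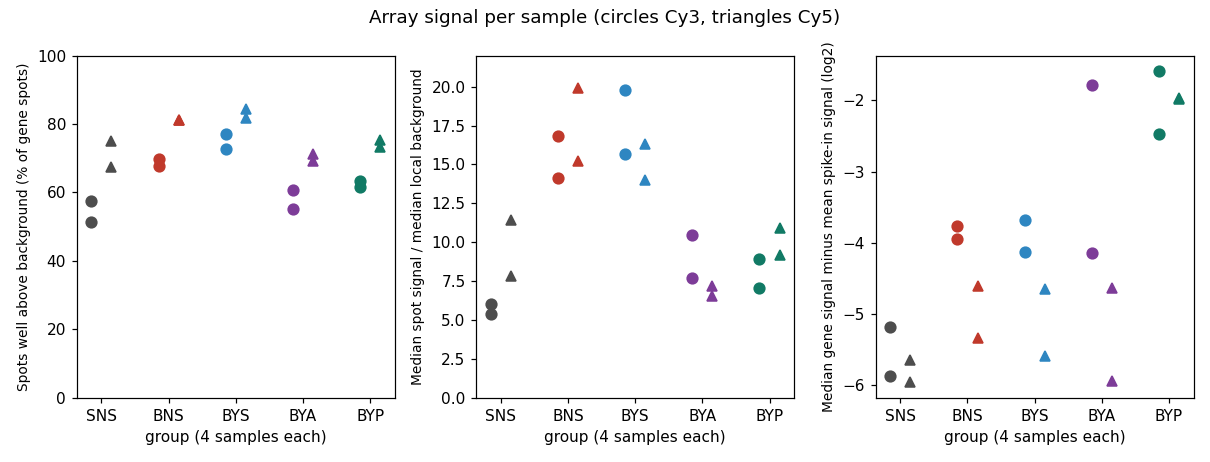
Signal on the arrays, 1 point per sample (circles Cy3, triangles Cy5) for the 5 conditions: the share of gene spots well above background in percent, the ratio of median spot signal to median local background, and the median gene signal minus the mean spike-in signal on the log2 scale. The 4 SNS samples had ratios of 5.42 to 11.4, below the 14.1 to 19.9 of the 4 BNS samples.

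Prenatal betamethasone went with differences in a large share of the genes measured. Of 17083 genes tested, 4884 (28.6%) were called, 2584 (15.1%) higher in BNS and 2300 (13.5%) lower. The differences were mostly moderate. The median size among called genes was 0.51, and 420 genes (2.46%) were called and at least 2-fold apart, 364 higher and 56 lower. The 4 BNS values all lay above the 4 SNS values for 2523 genes and below them for 2829 genes, together 5352 (31.3%). Of the called genes, 4868 had the same sign within the Cy3 and within the Cy5 samples taken alone. Because 2 pups shared each array, a second fit took the array as a random term, here called the array-blocked fit. It called 2590 genes, 1686 higher and 904 lower, all of them among the 4884. The number called lower fell by more than 1.5 times without BNS replicate 1, to 1456, and without SNS replicates 1 and 2, to 1436. With channels scaled to a common median in place of quantiles, 790 genes were called higher and 1859 lower, 126 and 342 of them at least 2-fold. The share of calls that were higher was 52.9% with quantiles, 29.8% with median scaling and 99.6% with spike-in scaling. Of 133 called genes examined singly below, 85 kept their call without each single sample in turn and 48 lost it without at least 1, between 16 (SNS replicate 4) and 32 (SNS replicate 1 or BNS replicate 4) for a given sample. With median scaling 67 of the 133 kept their call, and with the software's processed signals 62 did. Of the 133, 99 had a probe well above background in all 8 samples.

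The calls did not spread evenly over the probes. Of probes with a GC content of 15% to 36.7%, 19.7% were called higher, against 10.9% of probes at 55% to 90%. Calls lower went the other way, with 10.7% of the former and 17.2% of the latter. Of 1239 genes with more than 1 probe and at least 1 called probe, 98 (7.91%) had all probes called in the same direction and 95 (7.67%) had probes called in opposite directions. In the others some probes were called and the rest were not, with the same sign in 521 (42.1%) and with at least 1 of the other sign in 525 (42.4%). The part of probe composition and of slide brightness in the calls was not tested.

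**Figure D2:**
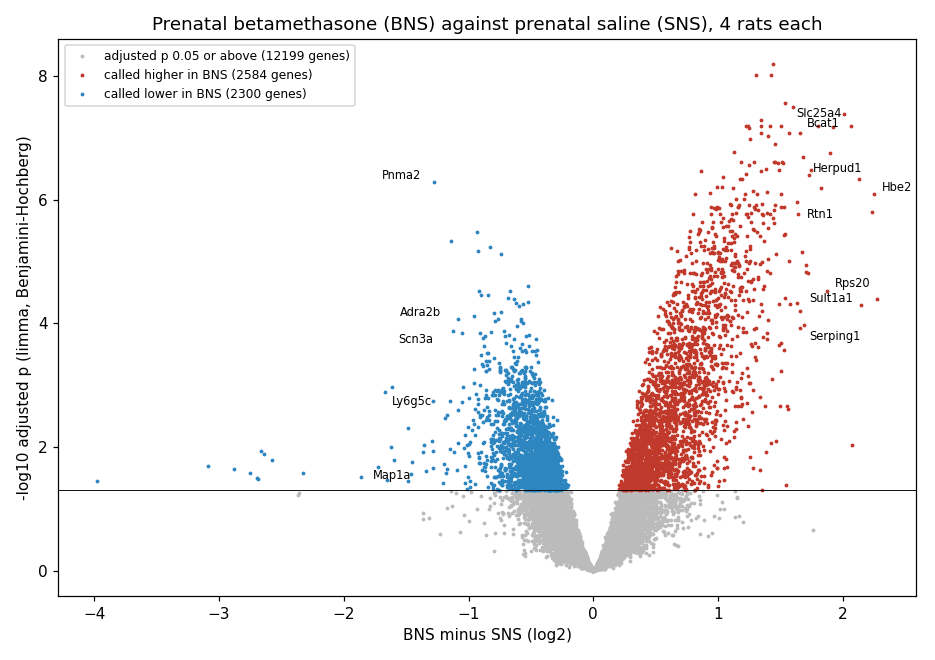
Difference between BNS and SNS on the log2 scale (x axis) against -log10 of the adjusted p (y axis, limma, 4 samples a condition), 1 point per gene, with the line at an adjusted p of 0.05. The 2584 genes called higher reach smaller p-values than the 2300 called lower, and some of the genes named in the text are labelled.

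The largest rises, among genes with a RefSeq symbol, no overlap and signal well above background in all 8 samples, were in genes of very different function. Hbe2, an epsilon-type globin gene, had levels of 12.72, 12.68, 13.59 and 13.29 in the 4 SNS samples and 15.45, 15.00, 15.47 and 15.37 in the 4 BNS samples. Every BNS sample stood above every SNS sample, and the difference was 2.25 ± 0.21 (SE), or 4.77-fold, with an adjusted p of 8.18e-07. Slc25a4, the ADP/ATP carrier of the inner mitochondrial membrane, had levels of 13.47, 13.36, 13.48 and 13.39 in SNS and 15.28, 15.16, 15.20 and 15.26 in BNS. The samples of each condition lay close together and did not overlap, and the rise was 1.80 ± 0.13 (adjusted p = 6.36e-08). Ctsl, the lysosomal protease cathepsin L, rose by 1.74 ± 0.15 (adjusted p = 3.34e-07), from levels of 12.04, 11.99, 12.51 and 12.24 to levels of 14.19, 13.86, 13.94 and 13.77. Bcat1, the cytosolic aminotransferase of branched-chain amino acids, rose by 1.65 ± 0.12 (adjusted p = 8.27e-08), from 13.86, 13.86, 14.29 and 13.98 to 15.66, 15.65, 15.70 and 15.59. For all 4 genes the conditions did not overlap.

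The other 8 of the 12 largest rises lay between 1.57 and 1.87. They were Rps20 and Rpl7a (ribosomal proteins), Herpud1 (a protein of endoplasmic reticulum-associated degradation), Ankra2, Sult1a1 (a phenol sulfotransferase), Serping1 (the inhibitor of complement C1), Rtn1 (a reticulon of neurons) and Hnrnpf (a splicing factor). Rps20 rose by 1.87 ± 0.24 (adjusted p = 2.95e-05), with SNS replicate 1 at 12.89 and the other SNS samples at 14.16 to 14.31, against 15.56 to 15.99 in BNS. Rtn1 rose by 1.64 ± 0.16 (adjusted p = 1.69e-06), from 14.13 to 14.99 in SNS to 15.96 to 16.35 in BNS. All 12 kept their calls in the array-blocked fit, with median scaling, with processed signals and without each single sample. In the other betamethasone conditions the mean levels of all 12 were above that of SNS. Hbe2 had means of 14.69, 15.07 and 14.37 in BYS, BYA and BYP against 15.32 in BNS and 13.07 in SNS, all lying between the means of these 2 conditions. Slc25a4 had means of 15.10, 15.09 and 14.93 in BYS, BYA and BYP against 15.22 in BNS and 13.43 in SNS, and Ctsl had 13.91, 13.79 and 13.68 against 13.94 and 12.19.

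The 12 largest falls, among genes chosen in the same way, lay between -0.92 and -1.28. Pnma2, a neuronal antigen of the paraneoplastic Ma family, had levels of 12.35, 12.46, 12.65 and 12.60 in SNS and 11.06, 11.44, 11.07 and 11.38 in BNS. It fell by 1.28 ± 0.11 (2.43-fold, adjusted p = 5.25e-07), and every BNS sample was below every SNS sample. Scn3a, a voltage-gated sodium channel most abundant in the immature brain, had levels of 11.67, 11.45, 11.48 and 11.33 in SNS and 10.11, 10.52, 10.69 and 10.12 in BNS, a fall of 1.12 ± 0.17 (adjusted p = 0.000131). Adra2b, an alpha-2 adrenergic receptor, fell by 1.08 ± 0.16 (adjusted p = 8.57e-05), from 10.25, 10.18, 10.23 and 10.57 to 8.96, 9.13, 9.44 and 9.36. The conditions did not overlap for any of these 3 genes.

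The other 9, between -0.92 and -1.15, were Ly6g5c, Ces1d (a carboxylesterase), Mfhas1, Usp42 (a deubiquitinase), Map1a (a microtubule-associated protein of neurons), Klc1 (a kinesin light chain), Chmp5 (a subunit of the ESCRT-III complex), Cxxc4 (an inhibitor of Wnt signalling) and Misp3. In the array-blocked fit Map1a (adjusted p = 0.0648) and Cxxc4 (adjusted p = 0.0682) were no longer called. Map1a also lost its call without SNS replicate 4, BNS replicate 3 or BNS replicate 4, and 6 of the 12 (Ces1d, Usp42, Map1a, Klc1, Chmp5 and Cxxc4) lost theirs when the software's processed signals were used. All 12 were called with median scaling. For the falls, the other betamethasone conditions often had means between those of BNS and SNS. Pnma2 had means of 12.06, 12.02 and 12.13 in BYS, BYA and BYP against 11.24 in BNS and 12.51 in SNS, and Chmp5 had 12.92, 12.85 and 13.17 against 12.40 and 13.36.

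**Figure D3:**
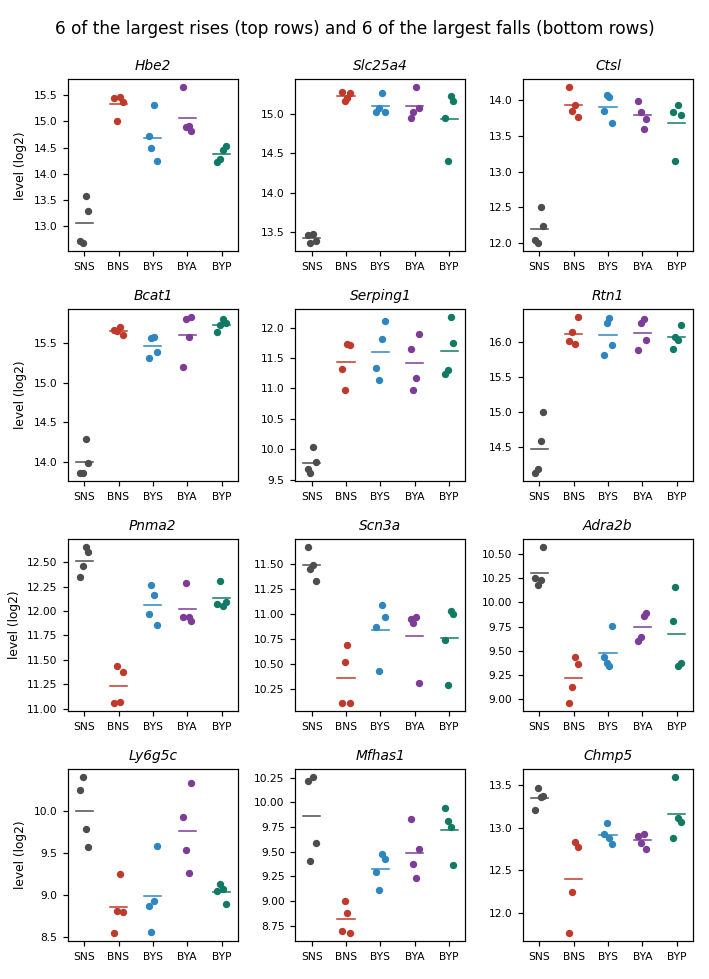
Levels (log2, y axis) of 6 of the largest rises and 6 of the largest falls in each of the 4 samples of SNS, BNS, BYS, BYA and BYP (x axis), with the mean as a bar. In the rises the SNS samples stand alone below the other conditions, as in Slc25a4 with 13.36 to 13.48 in SNS and 15.16 to 15.28 in BNS. In Pnma2 the BNS samples stand lowest, at 11.06 to 11.44.

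A further 31 genes with a RefSeq symbol were well above background in all BNS samples and in no SNS sample, without overlap, and none the other way round. Fewer spots were well above background on the SNS slide, 51.5% to 74.9% against 67.7% to 81.2% in BNS. The part of this dimness in the one-sided count was not tested. For these 31 genes the fold is a lower bound as regards the floor of detection, and makes no allowance for the spread between samples. Aldh1a2, which makes retinoic acid and is a marker of meninges, was at least 2.21-fold higher in BNS (adjusted p = 0.00400), with levels of 8.87, 8.10, 8.29 and 9.06. Slitrk2, Or2av10, Baz2b and Tmem116 were at least 1.57-fold to 1.59-fold higher. For Aldh1a2, Or2av10 and Baz2b the bound equalled the measured fold.

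Few of the genes through which glucocorticoids act were called. Of 25 textbook targets of the glucocorticoid receptor, 1 was called higher (4%) and 2 lower (8%), against 15.1% and 13.5% of all genes. Their median difference was -0.09 against -0.04 over all genes. Whether these shares differed from those of all genes was not tested. Sult1a1 was the one that rose. Its levels were 9.23, 9.33, 9.32 and 9.29 in SNS and 10.73, 10.44, 11.40 and 11.24 in BNS, with no overlap and a rise of 1.66 ± 0.24 (adjusted p = 6.33e-05). Per1, a clock gene that glucocorticoids induce, had levels of 8.52, 7.99, 8.08 and 7.97 in SNS and 7.76, 7.62, 7.70 and 7.65 in BNS. It fell by 0.46 ± 0.13 (adjusted p = 0.0160), and was not called in the array-blocked fit (adjusted p = 0.0627) or without SNS replicate 1. Nedd9, a scaffold protein of focal adhesions, fell by 0.36, but was not called with median scaling (adjusted p = 0.346) or with its highest-mean probe. Per1 was not called with median scaling (adjusted p = 0.591) or processed signals (adjusted p = 0.0503). Neither Per1 nor Nedd9 had a probe well above background in all 8 samples. The classical induced genes did not pass the test. Fkbp5, which dampens the receptor through its chaperone complex, differed by -0.22 ± 0.24 (adjusted p = 0.507), and Sgk1, a kinase induced by steroids, by 0.06 ± 0.16 (adjusted p = 0.806). Tsc22d3, the leucine zipper protein GILZ, had levels of 11.56, 11.63 and 11.82 in the 3 SNS samples with a value and of 13.10, 12.68, 12.39 and 12.52 in BNS. These did not overlap, but the difference of 1.00 ± 0.51 missed the threshold (adjusted p = 0.144).

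The receptor and its partners showed 1 rise (5.56%) and 3 falls (16.7%) among 18 genes, against 15.1% and 13.5% of all genes. Nr3c1, the glucocorticoid receptor itself, had levels of 8.06, 8.23, 8.11 and 8.19 in SNS and 8.44, 8.52, 8.48 and 8.53 in BNS. The samples did not overlap, and the rise was 0.34 ± 0.09 (adjusted p = 0.00826). The call was lost with median scaling (adjusted p = 0.0706) and with processed signals (adjusted p = 0.496). Crhr1, a receptor for corticotropin-releasing hormone, fell by 0.67 ± 0.16 (adjusted p = 0.00516), from levels between 7.90 and 9.02 to levels between 7.53 and 7.76, and was called under neither of those settings (adjusted p = 0.401 and 0.0571). Neither Nr3c1 nor Crhr1 had a probe well above background in all 8 samples. Ncor1, a corepressor of nuclear receptors, and Hsp90ab1, the chaperone that holds the receptor in the cytoplasm, fell by 0.40 and 0.37, but neither was called in the array-blocked fit (adjusted p = 0.0774 and 0.104).

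Promoters of Sult1a1 and Per1, among the called targets, are shown because the receptor binds DNA near some of the genes it regulates. RefSeq promoter sequences (build GRCr8, 250 bases before the start) were found for 10550 of the tested genes. The half-site AGAACA, searched on both strands, was in 17.1% of all 27457 promoters in the table, in 10.9% of those of tested genes, in 11.2% of those called higher and in 10.4% of those called lower. Of the 21 targets with a promoter, Sult1a1 alone held it, 83 bases before the start. The promoter of Nedd9, not shown, held no half-site. The capitals mark the half-site in Sult1a1 (chr1:190706113-190706362, minus strand), and Per1 (chr10:54304126-54304375, plus strand) held none.
Sult1a1: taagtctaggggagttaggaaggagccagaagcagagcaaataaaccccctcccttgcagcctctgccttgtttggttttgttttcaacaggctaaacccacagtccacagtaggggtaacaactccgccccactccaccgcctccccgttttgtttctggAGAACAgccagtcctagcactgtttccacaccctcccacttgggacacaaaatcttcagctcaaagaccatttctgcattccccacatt
Per1: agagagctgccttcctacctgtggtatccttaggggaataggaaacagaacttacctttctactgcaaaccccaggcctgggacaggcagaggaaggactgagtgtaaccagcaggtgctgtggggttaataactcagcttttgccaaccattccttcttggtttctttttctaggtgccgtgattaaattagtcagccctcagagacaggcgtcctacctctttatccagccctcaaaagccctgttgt

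Genes that define arcuate neurons were all measured, and none of the 20 was called in either direction by limma, with 28.6% of all genes called. Their differences ran from -0.52 to 0.48, with a median of -0.15. Npy, the orexigenic peptide, had levels of 14.80, 15.11, 15.60 and 15.25 in SNS and 14.02, 14.82, 15.38 and 14.94 in BNS, a difference of -0.40 with an adjusted p of 0.271. With median scaling Npy was called lower (-0.91, adjusted p = 0.0283). Agrp, the antagonist of melanocortin receptors made by the same neurons, had levels of 13.89, 14.45, 14.94 and 14.11 in SNS and 13.88, 14.83, 16.03 and 14.55 in BNS. BNS replicate 3 stood highest, and the difference of 0.48 had an adjusted p of 0.368. Pomc, the precursor of the melanocortins, had levels of 14.30, 14.60, 15.08 and 14.76 in SNS and 14.16, 14.50, 15.02 and 14.34 in BNS. The conditions overlapped almost wholly, and the difference was -0.18 (adjusted p = 0.638).

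Other arcuate peptides and enzymes also did not pass. Kiss1, Pdyn, Ghrh, Gal, Th, Cartpt, Penk, Tac1, Nts and Gad1 differed by -0.21 to 0.16, with adjusted p-values of 0.375 and above. Tac3, which encodes neurokinin B, differed by -0.46 (adjusted p = 0.204), and Gad2, which makes GABA, by 0.48 (adjusted p = 0.118). Trh, the thyrotropin-releasing hormone, came nearest to the threshold at -0.52 (adjusted p = 0.0849). Its 4 SNS samples all lay above its 4 BNS samples, at 10.81 to 11.47. Without SNS replicates 1 and 2, 1 of the 20 was called higher, Gad2 (adjusted p = 0.0234). With median scaling 3 were called lower, Npy, Tac3 (-0.90, adjusted p = 0.0295) and Trh (-0.85, adjusted p = 0.0483). Among 19 receptors that read hormones and peptides in these neurons, Mc4r (0.42) and Oprk1 (0.34) rose and Crhr1 (-0.67) and Igf1r (-0.30) fell. Of these, Crhr1 alone was called in the array-blocked fit, Mc4r alone with median scaling and Oprk1 alone with processed signals. Among 16 transcription factors of hypothalamic identity, 2 were called higher (12.5%) and 3 lower (18.8%), against 15.1% and 13.5% of all genes. Dlx1, a homeobox gene of GABA neurons, rose by 0.89 ± 0.15 (adjusted p = 0.000365), with levels of 10.43 to 11.32 in SNS and 11.59 to 11.97 in BNS. Six6 rose by 0.38, a lower bound of 1.30-fold as regards the floor of detection. Its call was lost without SNS replicate 1 or SNS replicate 2. Tbx3 (-0.67) and Dlx5 (-0.51) fell. Dlx1 alone of the 5 was called in the array-blocked fit, but it was not called with median scaling (adjusted p = 0.110).

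**Figure D4:**
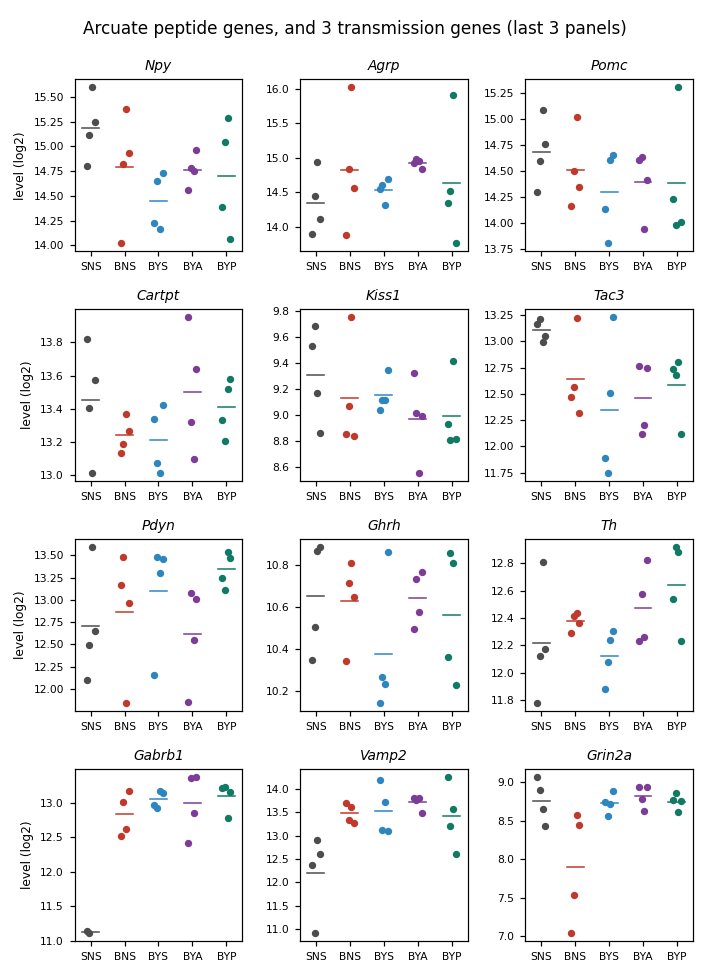
Levels (log2, y axis) in each sample of the 5 conditions (x axis, 4 samples each, mean as a bar) for 9 arcuate genes and for Gabrb1, Vamp2 and Grin2a. The SNS and BNS samples of Npy, Agrp and Pomc overlap, while the BNS samples of Vamp2, at 13.26 to 13.69, lie above its SNS samples, at 10.92 to 12.90.

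GABA is the main inhibitory transmitter of the hypothalamus. Of 13 subunits of its ionotropic receptor, 1 was called higher and 1 lower (7.69% each). Of 23 genes that make, move or sense it through the metabotropic receptor, 1 was called higher and 1 lower (4.35% each). Over all genes 15.1% were called higher and 13.5% lower. Gabrb1, the beta-1 subunit, had levels of 11.15 and 11.11 in SNS replicates 1 and 2, with no value in the other SNS samples, and 12.53, 13.01, 12.62 and 13.18 in BNS. The rise of 1.70 ± 0.19 (adjusted p = 1.13e-05) therefore rests on 1 SNS array. Gabrq, the theta subunit, fell by 0.70, and Gabarapl2, of the family that binds GABA-A receptors and autophagosomes, fell by 0.37 but was not called in the array-blocked fit (adjusted p = 0.0793). Neither fall was called with processed signals (adjusted p = 0.0636 and 0.980).

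Among 17 subunits of ionotropic glutamate receptors, 1 was called higher (5.88%) and 4 lower (23.5%), against 15.1% and 13.5% of all genes. Whether these shares differed was not tested. Grin2a, the NMDA receptor subunit that replaces Grin2b as the brain matures, had levels of 9.07, 8.90, 8.66 and 8.43 in SNS and 7.05, 7.54, 8.58 and 8.44 in BNS. BNS replicates 3 and 4 lay within the SNS range, and the fall was 0.86 ± 0.24 (adjusted p = 0.0139), a call lost without BNS replicate 1 or BNS replicate 2. Grin2c fell by 0.66, Gria1 by 0.59 and Grin1, the obligatory NMDA subunit, by 0.48. Neither Grin2a nor Grin1 had a probe well above background in all 8 samples. Gria4 rose by 0.45. In the array-blocked fit Grin2a and Gria4 remained, and without SNS replicates 1 and 2 none of the 4 falls was called. Median scaling kept Grin2c and Gria1 of the 5, and processed signals kept Grin2a and Gria4. None of 8 metabotropic glutamate receptors was called by limma, nor in the array-blocked fit, while 2 were called lower without SNS replicates 3 and 4.

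Of 16 genes that transport or convert glutamate, 4 fell (25%) and 1 rose (6.25%), against 13.5% and 15.1% of all genes, with a median of -0.23. With processed signals none of the 16 was called in either direction by limma, Got2 standing at -0.11 and Glud1 at 0.10. Slc1a2, the main glutamate transporter of astrocytes, had levels of 12.10, 11.89, 12.03 and 11.76 in SNS and 11.04, 11.40, 11.30 and 10.91 in BNS. All BNS samples were below all SNS samples, and the fall was 0.79 ± 0.23 (adjusted p = 0.0166, and 0.0867 in the array-blocked fit), a call also lost without BNS replicate 4. Slc38a1, a glutamine transporter of neurons, fell by 0.76 and Got2, the mitochondrial aspartate aminotransferase, by 0.48. Glud1 fell by 0.51 and lost its call in the array-blocked fit (adjusted p = 0.0710). Slc38a2, another glutamine transporter, rose by 0.61. Of 39 genes of synaptic vesicle release, 3 were called higher and 4 lower. Vamp2, the vesicle SNARE, rose by 1.27 ± 0.28 (adjusted p = 0.00267), with levels of 12.37, 10.92, 12.90 and 12.62 in SNS and 13.69, 13.34, 13.60 and 13.26 in BNS, SNS replicate 2 standing lowest. It was not called with median scaling (adjusted p = 0.109). Syt1, the calcium sensor of release, rose by 0.50. Sv2c fell by 0.72, a call lost with median scaling (adjusted p = 0.159) and processed signals (adjusted p = 0.0704). Of 14 dopamine genes, 2 were called higher (14.3%) and 1 lower (7.14%), with a median of -0.08. Gch1, the first enzyme in the synthesis of the cofactor tetrahydrobiopterin, rose by 1.12 ± 0.22 (adjusted p = 0.00131), and Qdpr, which recycles it, rose by 0.64. Qdpr was not called with median scaling (difference 0.18, adjusted p = 0.650).

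Of 73 potassium channel genes 14 fell (19.2%) and 4 rose (5.48%), against 13.5% and 15.1% of all genes. Of 21 calcium channel genes 4 fell (19%) and 1 rose, and of 13 sodium channel genes 4 fell (30.8%) and 1 rose. Whether these shares differed from those of all genes was not tested. Their medians were -0.15, -0.09 and -0.10. Kcnk1, a two-pore leak channel, had levels of 11.37, 11.37, 11.39 and 11.46 in SNS and 10.54, 10.39, 10.50 and 11.16 in BNS. The SNS samples lay close together and above all BNS samples, and the fall was 0.75 ± 0.13 (adjusted p = 0.000571). Kcnab2, an auxiliary subunit, fell by 0.68, and Kcnip3, a calcium-binding partner of Kv4 channels, by 0.64. Cacng6 and Cacng7, auxiliary subunits of the gamma family, fell by 0.83 and 0.59. Scn8a, the main sodium channel of mature axon initial segments, fell by 0.49, less than Scn3a. In the array-blocked fit 7 potassium, 3 calcium and 2 sodium channel genes remained lower and 1, 0 and 0 remained higher. With median scaling 6, 1 and 1 were called lower, Kcnk1 and Scn3a among them, and with processed signals 4, 3 and 2. Kcnab2, Kcnip3, Cacng6, Cacng7 and Scn8a were not called with median scaling (adjusted p between 0.205 and 0.347). Kcnab2 and Kcnip3 were not called with processed signals either (adjusted p = 0.135 and 0.393). Of 28 genes of the postsynaptic density, 2 were called higher and 4 lower, among them the scaffold Dlg2 (-0.51). Of 18 immediate early genes, which report recent neuronal activity, Homer1 alone was called (-0.29), and not in the array-blocked fit (adjusted p = 0.114).

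Genes of protein synthesis were called in both directions. Of 96 cytosolic ribosomal protein genes, 16 rose (16.7%, against 15.1% of all genes) and 7 fell (7.29%, against 13.5%), and their median difference was -0.10. Rps20 and Rpl7a led the rises and Rpl18 rose by 1.11, while Rpsa fell by 0.73 and lost its call in the array-blocked fit (adjusted p = 0.0655). With median scaling, 3 were called higher and 27 lower, and Rpl18 was not called (adjusted p = 0.138). Whether probes of these genes also bound near-identical gene copies was not tested. Of 51 translation initiation genes, 12 rose (23.5%) and 9 fell (17.6%). Eif3m, a subunit of the factor that loads the small ribosomal subunit, had levels of 11.50, 11.56, 11.62 and 11.42 in SNS and 13.01, 13.05, 13.20 and 13.00 in BNS. The conditions did not overlap, and the rise was 1.54 ± 0.10 (adjusted p = 2.77e-08). Eif1a, which acts in start codon scanning, rose by 1.51 ± 0.11 (adjusted p = 6.36e-08). Of the 12 rises 11 remained in the array-blocked fit, and of the 9 falls 1 remained, the fall being Eif2b5 (-0.68).

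Of 78 subunits of oxidative phosphorylation, 10 rose (12.8%, against 15.1% of all genes) and 6 fell (7.69%, against 13.5%), with a median of -0.05. Ndufa9 of complex I had levels of 11.31, 11.24, 11.02 and 11.31 in SNS and 12.88, 12.59, 12.34 and 12.64 in BNS, a rise of 1.39 ± 0.13 (adjusted p = 7.54e-07) without overlap. Atp5po of the ATP synthase rose by 1.34 and Cox7c by 1.05, and with median scaling Atp5po was not called (adjusted p = 0.0600). All 10 rises and none of the 6 falls remained in the array-blocked fit, and with median scaling 3 were higher and 12 lower. Of 57 splicing genes 11 rose (19.3%) and 4 fell (7.02%), the rises led by Hnrnpf (1.57) and Hnrnpk (1.49). Mitochondrial ribosomal proteins (11 of 71 higher, 12 lower), chaperones (8 and 11 of 71) and proteasome subunits (4 and 6 of 37) were called at shares between 10.8% and 16.9% in each direction.

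**Figure D5:**
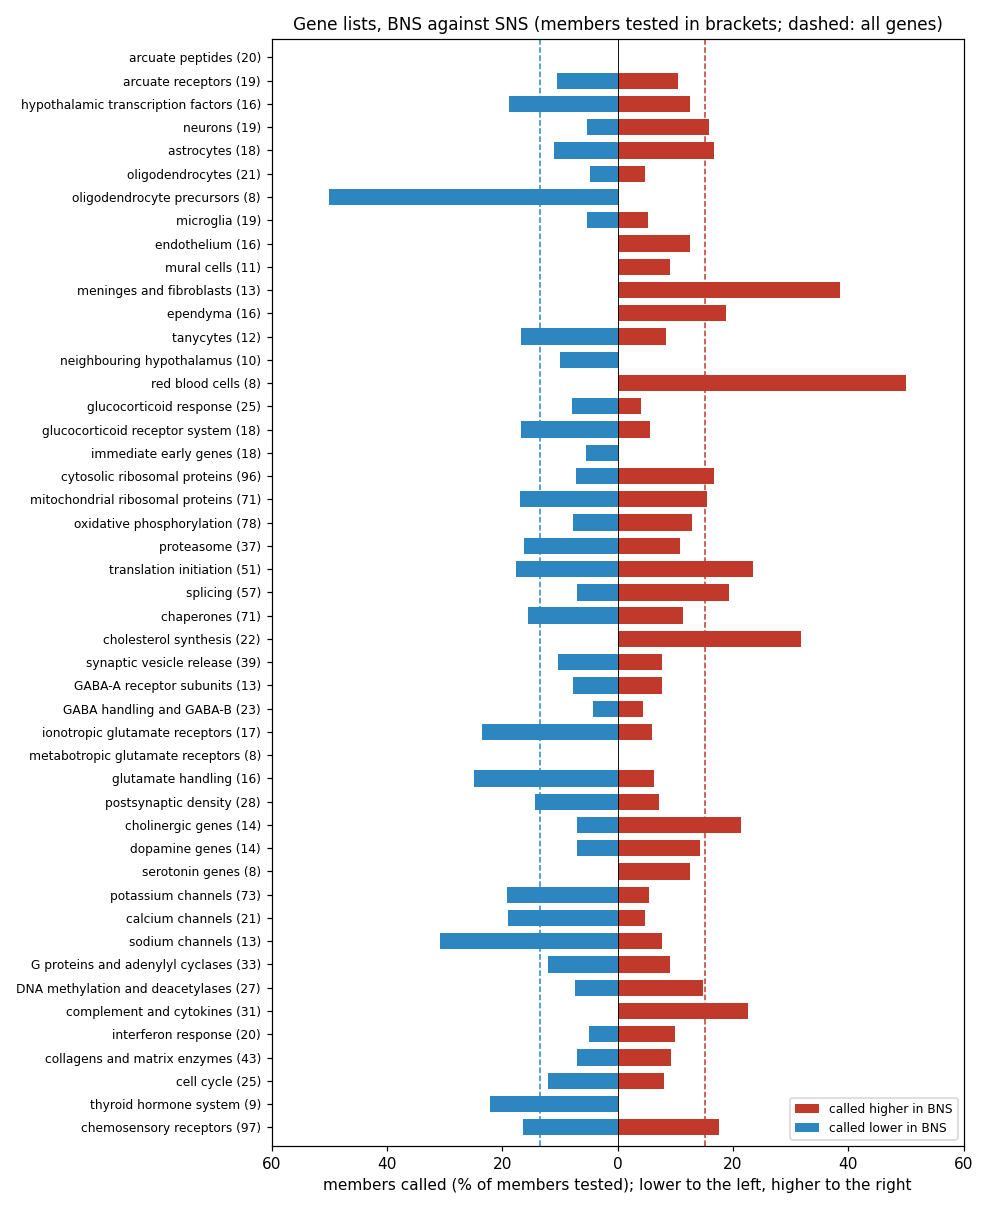
Share of the tested members of each gene list called lower (left, blue) and higher (right, red) in BNS, in percent, for the lists with at least 8 tested members. Dashed lines mark 13.5% lower and 15.1% higher over all genes. Arcuate peptides have no bar, and the widest bars belong to lists of 8 genes.

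In the brain cholesterol is made locally, much of it for myelin and synapses. Of 22 genes of the pathway, 7 (31.8%, against 15.1% of all genes) were called higher and none lower by limma, and 15 did not pass, with a median of 0.08. Hmgcs1, the cytosolic synthase that feeds the pathway, had levels of 13.58 and 13.98 in SNS replicates 3 and 4, with no value in the other SNS samples, and 15.27, 15.11, 14.96 and 15.12 in BNS, a rise of 1.34 ± 0.15 (adjusted p = 1.10e-05). Sc5d, a sterol desaturase, had levels of 9.86, 9.76, 9.87 and 9.74 in SNS and 11.26, 11.15, 10.91 and 10.54 in BNS, a rise of 1.16 ± 0.17 (adjusted p = 7.39e-05) without overlap. Insig1, which holds back the sterol sensor, rose by 0.80, Mvd by 0.60, and Sqle and Ebp by 0.46 each. Of the 7, 5 remained in the array-blocked fit. With median scaling Sc5d alone remained, with processed signals Hmgcs1 and Sc5d, and without SNS replicates 3 and 4 there were 3 higher and 4 lower.

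Of 31 complement and cytokine genes, 7 (22.6%, against 15.1% of all genes) were called higher and none lower by limma. Serping1, which restrains the classical complement pathway, had levels of 9.67, 9.61, 10.04 and 9.80 in SNS and 11.31, 10.97, 11.73 and 11.71 in BNS. The BNS samples all lay above the SNS samples, and the rise was 1.65 ± 0.25 (adjusted p = 0.000117). Cxcl12, a chemokine that guides migrating cells, rose by 0.77 ± 0.12 (adjusted p = 0.000131), with 9.39 to 9.85 in SNS and 10.14 to 10.54 in BNS. Cfb (0.96), Myd88 (0.57), C4a (0.52) and Tgfb2 (0.30) also rose, but in the array-blocked fit Serping1 and Cxcl12 alone remained, and the adjusted p of Cfb, Myd88, C4a and Tgfb2 lay between 0.0613 and 0.111. With processed signals 2 were called higher and 1 lower, and with median scaling 3 higher.

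Markers of cell types moved in small numbers. Over all genes 15.1% were called higher and 13.5% lower, and whether the cell type lists differed from these shares was not tested. In tissue RNA, fewer cells of a type and less RNA per cell cannot be told apart. Among 19 neuronal markers, Uchl1 (0.81), Gap43 (0.58) and Syt1 (0.50) rose and Map2 fell by 0.87. Gap43 (adjusted p = 0.0542) and Map2 (adjusted p = 0.0930) were not called in the array-blocked fit, and Uchl1 was not called with median scaling (adjusted p = 0.879). Among 18 astrocyte markers, Slc7a10, a transporter of D-serine and glycine, rose by 0.95 ± 0.12 (adjusted p = 2.26e-05) and the gap junction gene Gja1 by 0.45. With median scaling Slc7a10 (adjusted p = 0.145) and Gja1 (adjusted p = 0.979, difference 0.01) were not called, and Gja1 was also lost with processed signals (adjusted p = 0.0729). Mlc1 (0.66), Fgfr3 (-0.34) and Slc1a2 were not called in the array-blocked fit. Among 19 microglial markers, 1 was called higher and 1 lower. Cx3cr1, the fractalkine receptor, fell by 0.73 ± 0.16 (adjusted p = 0.00284), from 11.84 to 12.10 in SNS to 11.02 to 11.41 in BNS. The median of the 19 was -0.01.

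In the oligodendrocyte lineage, Olig2 rose by 1.05 ± 0.11 (adjusted p = 4.12e-06), from levels of 11.35, 11.26, 11.21 and 11.39 to 12.28, 12.30, 12.24 and 12.59. It was not called with median scaling (adjusted p = 0.0561). Myrf, which turns on myelin genes, fell by 0.40, and the other 19 of 21 lineage and myelin markers were not called, with a median over the list of -0.25. Of 8 markers of oligodendrocyte precursors 4 fell (50%, against 13.5% of all genes) and none rose by limma. Whether this share differed from that of all genes was not tested. Bmp4 had levels of 10.79, 10.77, 10.38 and 10.48 in SNS and 9.68, 9.64, 10.05 and 10.20 in BNS, a fall of 0.71 ± 0.17 (adjusted p = 0.00605). Cspg5 fell by 0.73, Gpr17 by 0.38 and Vcan by 0.36. Bmp4 alone remained in the array-blocked fit, and without SNS replicates 1 and 2 none of the 4 was called.

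The blood and meningeal markers that were called were all higher in BNS. All 8 tested red blood cell genes were positive, with a median of 0.52, and 4 were called (50%, against 15.1% of all genes called higher). With median scaling none of the 8 was called by limma, the difference of Hba-a1 being 0.06 (adjusted p = 0.892) and that of Hbb-b1 -0.06 (adjusted p = 0.908). Hba-a1, an alpha globin, had levels of 15.22, 15.07, 15.26 and 14.84 in SNS and 15.84, 15.49, 16.04 and 15.86 in BNS, a rise of 0.71 ± 0.14 (adjusted p = 0.00154) without overlap. Alas2, which starts heme synthesis in red cell precursors, rose by 0.99 and Hbb-b1 by 0.51. Of 13 genes of meninges and fibroblasts, 12 were positive, with a median of 0.38, and 5 were called (38.5%). Whether the shares of these 2 lists differed from that of all genes was not tested. Igf2 had levels of 11.86, 10.99, 11.84 and 12.54 in SNS and 13.87, 11.91, 12.96 and 13.62 in BNS, a rise of 1.28 ± 0.40 (adjusted p = 0.0223) with BNS replicate 2 inside the SNS range. Col3a1 rose by 1.05, Col6a1 by 0.75 and Dcn by 0.61. Lox was called as well but was not well above background in any SNS sample. In the array-blocked fit 2 of the red blood cell genes (Hba-a1 and Alas2) and none of the 5 meningeal genes remained, the adjusted p of the 5 lying between 0.0547 and 0.197. Of the 5, Col6a1 alone was called with median scaling and none with processed signals. Alas2 lost its call without BNS replicate 3 or BNS replicate 4, and Igf2, Col3a1 and Dcn lost theirs without any 1 of SNS replicates 1 to 3 or BNS replicates 1 and 4. The part of blood and meninges left on the tissue in the rises of Hbe2, Aldh1a2 and Serping1 was not tested.

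Vessel and ventricle markers gave rises in Itm2a (1.20) and Kdr (0.52) among 16 endothelial genes, Des (0.44) among 11 of mural cells, and Rarres2 (0.98), Tmem212 (0.85) and Dynlrb2 (0.74) among 16 of ependyma. The shares called higher were 12.5%, 9.09% and 18.8%, against 15.1% of all genes, with 13.5% of all genes called lower. Whether the lists of this paragraph differed from all genes was not tested. With median scaling no endothelial gene was called higher and 3 were called lower, Itm2a (adjusted p = 0.126) and Kdr (adjusted p = 0.692) losing their calls, and Des was not called (adjusted p = 0.0916). Processed signals called none of the endothelial genes. Rarres2, which encodes chemerin, was the only one of the 3 ependymal genes called in the array-blocked fit, with median scaling or with processed signals. Among 12 tanycyte genes 1 was called higher, Scn7a (0.67), and 2 lower, among them Col23a1 (-0.45). Scn7a was not called in the array-blocked fit (adjusted p = 0.0909) or with median scaling (adjusted p = 0.0617). It also lost its call without any 1 of 5 samples. Of 9 genes of the thyroid hormone system 2 were called lower, among them Trhde (-0.44). With median scaling Col23a1 (adjusted p = 0.383) and Trhde (adjusted p = 0.0840) were not called. Of markers that would show a shifted dissection, Oxt of the neighbouring hypothalamus (-0.65), Tcf7l2 of the thalamus (-0.58), Pitx1 of the pituitary (-0.49) and Aqp1 of the choroid plexus (0.22) were called among 10, 4, 5 and 5 tested genes. None of 5 genes of cortex and hippocampus was called by limma, with a median of 0.00, though 1 was called without SNS replicates 1 and 2, and 2 without SNS replicates 3 and 4. In the array-blocked fit Pitx1 alone of these was called, and Aqp1 was not called with median scaling (adjusted p = 0.285).

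Of 27 genes of DNA methylation and histone deacetylation, 4 were called higher and 2 lower. Of 33 genes of G proteins and adenylyl cyclases 3 were higher and 4 lower, and of 20 interferon genes 2 and 1. Of 43 collagens and matrix enzymes 4 and 3 were called, of 25 cell cycle genes 2 and 3, of 14 cholinergic genes 3 and 1, and of 8 serotonin genes 1 and none. Of 97 chemosensory receptor genes, most of which the arcuate nucleus is not known to use, 17 (17.5%) were called higher and 16 (16.5%) lower, against 15.1% and 13.5% of all genes. Whether the shares of these lists differed from those of all genes was not tested.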

How the data were processed

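Per the labels, arcuate RNA of 20 female rats was hybridized to two-colour Agilent rat arrays, 11 on 6 slides, in the study's "multiple yellow" design, where both dyes carry the same condition. The authors deposited scanner output, with fluorescence intensities per spot and channel (mean signal, median local background and a software-processed signal) and flags of 0 or 1 for spots well above background, outliers or saturated. Feature Extraction is version 10.7.3.1 in the submitters' processing notes and 11.5.1.1 in the file headers. The 82 per-channel columns of animals of another series, on 2 arrays, were not used.

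Each channel was a sample. Backgrounds were corrected with limma's normexp (offset 50), log2 values of the 20 channels were set to common quantiles, spots flagged as outliers (1.18%) were dropped and the spots of each probe averaged. Probes entered if, in some condition, every 1 of its 4 samples had a share of 0.5 or more of the probe's spots well above background (19883 probes). A gene took the mean of its complete probes, or its most complete probe where all lacked a value. Of 30367 probes 61.4% matched a RefSeq symbol and the others kept their name, so a gene here can be an unnamed transcript. limma (3.58.1, R 4.3.3, statmod 1.5.0) fitted condition and dye over all samples, and a second fit took the array as a random term, and BNS minus SNS was adjusted by Benjamini-Hochberg over 17083 genes. With 4 samples against 4, the smallest exact permutation p is 0.0286, so no permutation p was used. The number of arrays limits the precision.

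Genes named singly are the 12 largest rises and 12 largest falls among called genes with a RefSeq symbol, no overlap, probes of the same sign and signal well above background in all 8 samples, the 5 largest lower bounds, and members of the gene lists. Some members are not reported here by name. A lower bound sets the mean of the bright condition against the mean, per array, of the higher of the probe's own value and the lowest signal well above background. The members and lists were chosen with earlier results of these data known.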

Additional observations from a re-analysis of the deposited data

Results flagged for a closer look

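In 309 groups of 4 values (the genes named above and 3 measures of array signal, in SNS and in BNS), the highest or lowest sample was set against the range of its group. In 14 groups its gap to the nearest other sample passed Dixon's critical value for groups of this size, and chance alone gives about 1 in 20. In SNS, replicate 1 stood apart for Rps20 (ratio 0.898, level 12.89) and Scn11a (0.913), replicate 2 for Klc1 (0.915), replicate 3 for Penk (0.836) and Nts (0.844), and replicate 4 for Gabrq (0.868) and Gja1 (0.86). In BNS, replicate 3 stood apart for Oprk1 (0.958), Cacng7 (0.887), Rpl18 (0.956), Snrnp70 (0.878), Gpr17 (0.837) and Tcf7l2 (0.874), and replicate 2 for Des (0.897). Of the 7 flags in BNS, 6 fell on replicate 3.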

How the results depend on the processing

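Against 4884 genes called (2584 higher, 2300 lower, 364 and 56 of them at least 2-fold), median scaling gave 2649 (790 higher, 126 at least 2-fold higher and 342 at least 2-fold lower), spike-in scaling 1509 (1503 higher, 6 lower, each at least 2-fold), processed signals 2329 (1320, 1009, 157 at least 2-fold lower), and a random array term (correlation 0.365) 2590 (1686, 904, 36 at least 2-fold lower). Cy3 alone gave 683 (613, 70, 15 at least 2-fold lower), Cy5 alone 397 (354, 43, with 205 and 8 at least 2-fold). The methods' unequal-variance test gave 2529 after Benjamini-Hochberg (1374, 1155, 17 at least 2-fold lower) and 6069 at an unadjusted p under 0.05 (limma 7078). Only probes well above background in all 8 samples gave 1475 higher, and no background correction gave 96 at least 2-fold lower. A 2-fold threshold left 420. The share of calls that were higher was 52.9%, against 89.8% with Cy3 alone and 89.2% with Cy5 alone. Without each sample in turn, 3545 to 4582 were called, 2089 to 2609 higher, 1456 to 2025 lower, 348 to 431 at least 2-fold higher and 28 to 88 at least 2-fold lower. Without SNS replicates 1 and 2, chosen after seeing the data, 1436 were lower and 28 at least 2-fold lower, and without SNS replicates 3 and 4, 604 were at least 2-fold higher and 112 at least 2-fold lower. Loess with Aquantile, offset 10, no filter, the highest-mean probe, only the 8 samples and no dye covariate kept all 5 counts within 1.5 times.

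The replicate block in place of the dye gave 5093 genes (2705 higher, 2388 lower). Samples with the same replicate number were not paired by the labels, and their deviations correlated at 0.0464 to 0.148 against a mean of -0.0295 for other numbers. All 133 called genes examined singly kept their call with the block. Of these 133, 129 kept it with loess and Aquantile, 82 with the random array term, 67 with median scaling and 62 with processed signals. Signs turned for Scn11a (0.13), Cacnb4 (0.27), Gabarapl2 (0.0071), Glud1 (0.10) and Sqle (-0.18) with processed signals, for Hbb-b1 (-0.0567) with median scaling and for Dynlrb2 (-0.19) with the highest-mean probe, none of them called there, and the cause was not tested. With spike-in scaling relative to the median gene, added after seeing the data, none of the 133 was called and all kept their sign. The combined criterion of the methods was not run, since the formula of its threshold is not given in the sources used here. Signal over background limits the dim genes, most of all in SNS.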

Other observations

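Several wide differences belonged to probes without a RefSeq name, chosen here after their values were seen. Probe A_64_P115964 had mean levels of 15.04 in SNS, 11.95 in BNS, 12.04 in BYS, 14.65 in BYA and 13.72 in BYP. Probe A_64_P033034 had mean levels of 14.44 in SNS, 11.56 in BNS, 11.62 in BYS, 14.33 in BYA and 13.29 in BYP. Vapa, which anchors membranes of the endoplasmic reticulum, fell by 2.33 on the log2 scale (adjusted p = 0.0266, limma), but its SD was 2.59 in BNS against 0.16 in SNS and the conditions overlapped.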
